A study of Mus musculus with 2 samples.

Results

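The genes of MHC class II antigen presentation were examined in RNA of mouse hematopoietic stem cells (HSC, rare marrow cells from which every blood lineage descends). The list held 10 genes: H2-Aa, H2-Ab1, H2-Eb1, Cd74, Ciita, H2-DMa, H2-DMb1, H2-Oa, H2-Ob and Ctss. They were taken as the probe sets whose platform annotation names 1 of these genes and no other. This gave 17 probe sets of 9 of the 10 genes, out of 34945 probe sets naming 1 of 18193 genes. H2-DMb1 had no probe set of its own. The study consisted of 2 Affymetrix 3' expression arrays. One held RNA of HSC labelled with a Sirt6 knockout and the other RNA of wild-type HSC, both from mice aged 3 months, with no treatment given in the labels. The labels do not state the strain, the way the Sirt6 allele was disrupted, the sort or the number of animals behind each RNA. The 1 Sirt6 probe set was not lower with the knockout label (174 against 124). The labels do not say whether it lies in a deleted part, so it does not check the genotype, and every direction rests on the label. Class II genes are highly polymorphic between mouse strains, and a probe set can read alleles unequally. Whether the 2 RNA samples carried the same class II alleles was not tested. With 1 array per genotype there was no replicate. No test, SD between animals or p-value could be computed, and each ratio compares these 2 RNA samples.

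MHC class II molecules present peptides taken up from outside the cell to CD4+ T cells. Dendritic cells, B cells and macrophages carry most of them, and they have also been found on hematopoietic stem and progenitor cells. An alpha and a beta chain pair in the endoplasmic reticulum with the invariant chain (Cd74), which guides the complex to endosomes. There proteases such as cathepsin S (Ctss) cut the invariant chain down to a short peptide, which H2-DM removes so that antigenic peptides can bind, and H2-DO holds H2-DM in check. Transcription of most of these genes depends on the coactivator Ciita. It does not bind DNA itself but joins RFX, CREB and NF-Y proteins assembled on paired X and Y boxes upstream of the genes.

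Promoter letters are shown as a description of the X and Y boxes in the reference sequence. Sequences were taken from RefSeq promoters (GRCm38.p6), in which 7 of the 10 genes were found. H2-Ab1, Cd74 and Ciita had no entry. An X box core was searched as ACNGATG and a Y box core as ATTGG, on both strands, and a pair was counted when the first preceded the second on the same strand with 10 to 40 bases between them. A second form of the pair, GCAAC before ATTGG at the same spacing, was added after the promoters had been read, and its letters overlap ACNGATG in H2-Eb1 and H2-Eb2. Each window runs from 140 to 31 bases before the RefSeq start, on the gene's own strand, and capitals mark the letters of a pair. The windows lie at chr17:34287854-34287963 on the minus strand (H2-Aa) and, on the plus strand, at chr17:34305727-34305836 (H2-Eb1), chr17:34092239-34092348 (H2-Oa), chr17:34238765-34238874 (H2-Ob), chr17:34153051-34153160 (H2-DMb1), chr17:34145109-34145218 (H2-DMb2) and chr17:34325535-34325644 (H2-Eb2). Windows are printed only for genes in which a pair was found. H2-DMb2 and H2-Eb2 are class II genes outside the list of 10.
H2-Aa: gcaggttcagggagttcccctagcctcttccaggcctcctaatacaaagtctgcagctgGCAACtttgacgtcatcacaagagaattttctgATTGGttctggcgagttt
H2-Eb1: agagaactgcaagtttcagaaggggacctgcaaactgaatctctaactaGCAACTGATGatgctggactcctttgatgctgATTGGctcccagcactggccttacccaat
H2-Oa: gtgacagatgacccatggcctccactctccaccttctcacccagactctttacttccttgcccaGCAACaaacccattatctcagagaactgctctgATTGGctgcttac
H2-Ob: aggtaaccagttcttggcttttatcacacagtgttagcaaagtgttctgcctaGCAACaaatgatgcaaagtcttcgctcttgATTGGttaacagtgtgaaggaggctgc
H2-DMb1: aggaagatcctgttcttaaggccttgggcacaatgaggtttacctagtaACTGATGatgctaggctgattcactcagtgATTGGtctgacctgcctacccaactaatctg
H2-DMb2: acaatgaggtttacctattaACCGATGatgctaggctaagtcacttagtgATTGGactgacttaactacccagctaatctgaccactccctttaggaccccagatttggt
H2-Eb2: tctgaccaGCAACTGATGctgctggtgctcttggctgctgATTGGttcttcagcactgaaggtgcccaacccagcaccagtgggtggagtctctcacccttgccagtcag

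The ACNGATG pair was found in 2 of the 7 members with a sequence, H2-Eb1 and H2-DMb1, and in both other class II genes. The search covered the whole RefSeq promoter of 300 bases, from 250 before the start to 50 after it, and this pair was present in 0.225% of 32851 such promoters. The GCAAC pair was found in the members H2-Aa, H2-Eb1, H2-Oa and H2-Ob and in the other class II gene H2-Eb2. It was present in 1.43% of those promoters. Because this form was added after the promoters had been read, that share gives no measure of enrichment. The gap between the ACNGATG and ATTGG letters was 22 or 23 bases in the 4 genes that held them, and that between GCAAC and ATTGG ran from 25 bases in H2-Ob to 28 in H2-Aa and H2-Oa. Neither pair was found at the 2 RefSeq starts of H2-DMa or at that of Ctss, and other starts were not searched. The letters are a description of the reference sequence and not of protein binding in these cells.

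**Figure D1:**
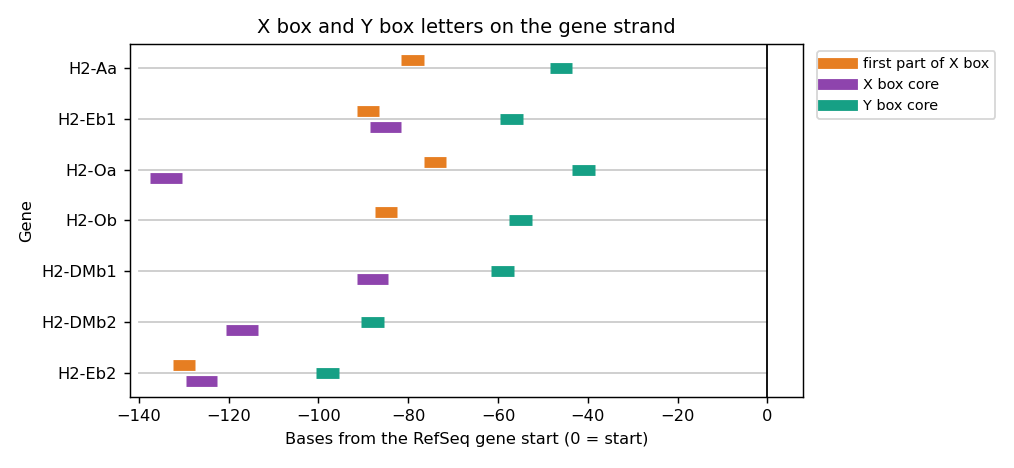
Position of the X box and Y box letters on the gene strand of 7 class II promoters, in bases from the RefSeq start (0); orange bars mark GCAAC, purple bars ACNGATG and green bars ATTGG between 140 and 31 bases before the start. The 7 genes are shown because a pair was found in them, and none was found for H2-DMa or Ctss. Within the pairs the gap before the Y box core was 22 to 28 bases. The isolated ACNGATG of H2-Oa forms no pair.

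The signals of these genes ranged from lower on the array labelled knockout to equal on both arrays. The 3 lowest genes were H2-Eb1 and H2-Aa, which encode chains of the peptide-binding heterodimers, and Cd74. H2-DMa and H2-Ob, of the peptide exchange machinery, and Ctss read nearly the same on both arrays, and H2-Ab1 and H2-Oa lay between. Signals are MAS5 intensities on a linear scale, and a ratio is the signal on the array labelled knockout over the wild-type signal, given as log2 and written knockout over wild type. The brightest probe set, by mean log2 signal over both arrays, stood for a gene, which counted as measured above a floor of 60.5 signal units, which is the mean signal of the median probe set. Of the 10 genes, 8 were measured, each above the floor on both arrays, so no ratio among them is set by the floor. Of these 8, 3 were at least 1.5-fold lower (37.5%) and 0 were at least 1.5-fold higher. Among the 11547 genes measured in all, the shares at least 1.5-fold lower and higher were 2.63% and 1.71%. The median log2 ratio of the 8 genes was -0.37, against 0.0023 for all measured genes.

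**Figure D2:**
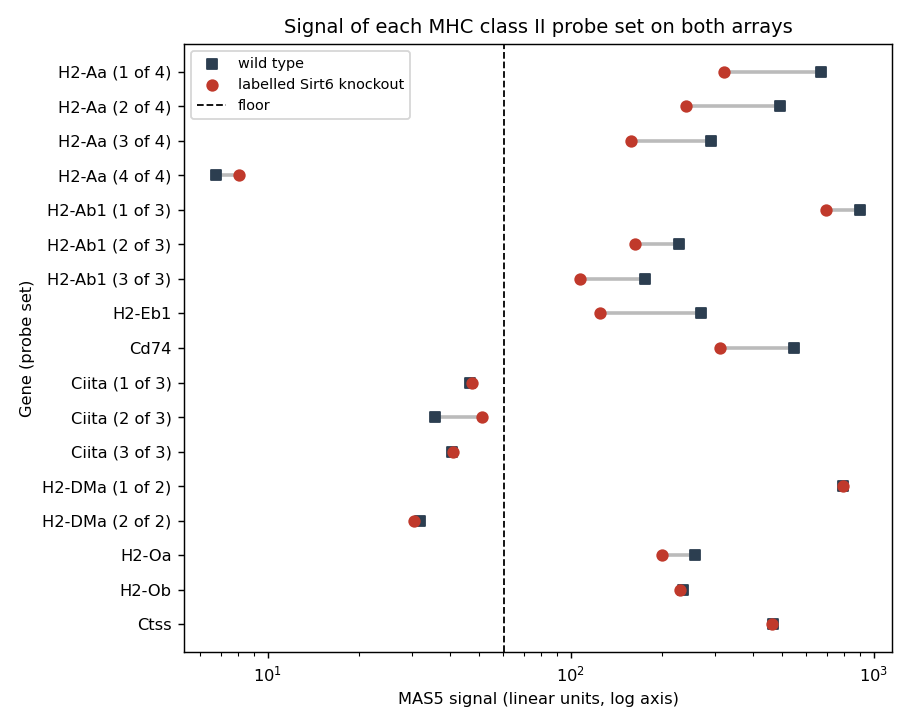
Signal of each of the 17 probe sets (rows) on the array labelled Sirt6 knockout (red circles) and the wild-type array (dark squares), on a log axis in MAS5 units, with the floor of 60.5 as a dashed line; grey bars join the 2 arrays. All 3 H2-Aa probe sets above the floor, all 3 of H2-Ab1 and those of H2-Eb1 and Cd74 lie lower on the array labelled knockout, while H2-DMa, H2-Ob and Ctss overlap and the 3 Ciita probe sets lie under the floor.

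H2-Aa encodes the alpha chain of the I-A heterodimer. Its brightest probe set read 322 with the knockout label and 670 in wild type, a 2.08-fold difference (log2 -1.06). The second probe set read 240 against 493 (log2 -1.04) and the third 158 against 292 (log2 -0.88). These 3 pointed the same way, with an SD of 0.096 between their log2 ratios. The fourth probe set, at 8.04 against 6.77 signal units, was under the floor on both arrays and gives no ratio. The names of these probe sets end in _x_at or _s_at, which marks probes that can match related transcripts. Among all measured genes the ratio of H2-Aa ranked 57 from the lowest.

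H2-Ab1 encodes the beta chain that pairs with H2-Aa. Its 3 probe sets were above the floor on both arrays. They read 695 against 904 (log2 -0.38), 164 against 228 (log2 -0.48) and 107 against 176 (log2 -0.71). Each was lower on the array labelled knockout, and only the dimmest of the 3 passed 1.5-fold. The name of the dimmest ends in _x_at and that of the brightest in _s_at, so both can match related transcripts. The SD between the 3 log2 ratios was 0.17. For comparison, log2 ratios of the same gene's probe sets had an SD of 0.22 across 4632 genes with 2 or more such probe sets over the floor. That SD measures disagreement between probes of one transcript on these arrays and holds no error between animals.

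H2-Eb1 encodes the beta chain of the I-E heterodimer and had 1 probe set. It read 125 with the knockout label and 270 in wild type, a 2.17-fold difference (log2 -1.12). This was the lowest ratio among the members, at rank 46 of 11547 from the lowest. With the floor raised to percentile 75 of the mean signals, which lies between these 2 signals, the log2 ratio was -0.17. At a size of 2-fold, H2-Eb1 and H2-Aa were the 2 members called lower, against 0.572% of all measured genes, and 0 members were 2-fold higher, against 0.398%. No second probe set of H2-Eb1 was at hand to compare.

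Cd74, the invariant chain, read 312 against 547 on its 1 probe set, a 1.75-fold difference (log2 -0.81) at rank 132 from the lowest. Cd74 differed in the same direction as H2-Aa, H2-Ab1 and H2-Eb1, by an amount between those of H2-Ab1 and H2-Aa. The chain genes H2-Ea and H2-Eb2, outside the list, were level (log2 0.03 and 0.02).

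H2-DMa, the alpha chain of the peptide exchange factor, read 792 on both arrays. Its other probe set was under the floor, at 30.3 against 31.8. H2-Oa, the alpha chain of the DM inhibitor H2-DO, read 200 against 258 (log2 -0.36), a ratio close to that of H2-Ab1. H2-Ob, the beta chain of H2-DO, read 229 against 236 (log2 -0.04). Both chains of H2-DO stayed under 1.5-fold. Ctss, the protease that trims the invariant chain, read 463 against 466 (log2 -0.0078). The signs of the ratios of H2-DMa, H2-Ob and Ctss turned under other scalings of the arrays, so they show no direction.

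H2-DMb1, the beta chain of H2-DM, could be followed only through probe sets shared with its near copy H2-DMb2, which cannot be assigned to either gene. One shared probe set read 274 against 294 (log2 -0.10) and the other 344 against 438 (log2 -0.35), so neither reached 1.5-fold. A further probe set named H2-Ob together with Gm20506 and read 324 against 303 (log2 0.098).

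Ciita, the coactivator of the family, was not above the floor on either array. Its 3 probe sets read 47.3 against 46.5, 51.0 against 35.8 and 41.0 against 40.7 signal units. The first and the last were level on both arrays, and the other was higher on the array labelled knockout. All 3 lie where MAS5 values carry mostly noise, so these arrays give no ratio for Ciita and a difference was not detectable.

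**Figure D3:**
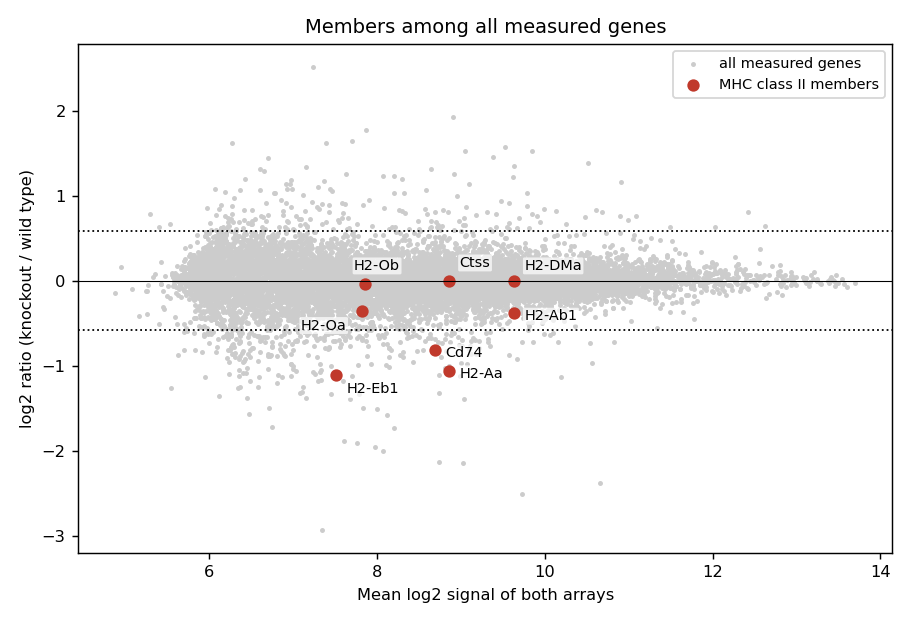
The log2 ratio of knockout over wild type against the mean log2 signal for all 11547 measured genes (grey) and the 8 measured members (red, named); dotted lines mark 1.5-fold. H2-Eb1 (-1.12), H2-Aa (-1.06) and Cd74 (-0.81) lie under the lower line, and H2-DMa, H2-Ob and Ctss lie at the centre of the cloud.

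Among all 17 member probe sets, 12 were above the floor and 5 were not. Of the 12, 6 were at least 1.5-fold lower (50%) and 0 at least 1.5-fold higher, against 3.55% and 1.6% of the 19881 named probe sets above the floor. The 6 were 3 probe sets of H2-Aa and 1 each of H2-Ab1, H2-Eb1 and Cd74. Probe sets of one gene share a transcript and do not count as separate observations.

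The class II genes lie together on chromosome 17, and their order was used, after the values had been seen, to set each member beside its neighbours. Counting only genes with a probe set of their own, from 4 genes before H2-Oa to 4 after H2-Eb2, the stretch held 21 genes, of which 18 were measured. Of the 18, the 2 at least 1.5-fold lower were the adjacent H2-Aa and H2-Eb1, and 0 were at least 1.5-fold higher. The shares of all measured genes were 2.63% lower and 1.71% higher. H2-Ab1 lies next to H2-Aa. On the far side of H2-Eb1, H2-Eb2 read 88.3 against 87.2 (log2 0.02) and H2-Ea, an alpha chain gene that is inactive in several inbred strains, read 237 against 232 (log2 0.03) on 1 of its 3 probe sets. The other H2-Ea probe sets were under the floor, at 28.4 against 35.6 and 17.9 against 19.7. Between H2-DMb2 and H2-Ob lie 4 class I genes, the immunoproteasome subunits Psmb9 (log2 -0.10) and Psmb8 (0.04) and the peptide transporter genes Tap1 (0.14) and Tap2 (0.52), all named after their values were seen. The lower signals did not extend over the whole stretch. Cd74, Ciita and Ctss lie on other chromosomes.

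**Figure D4:**
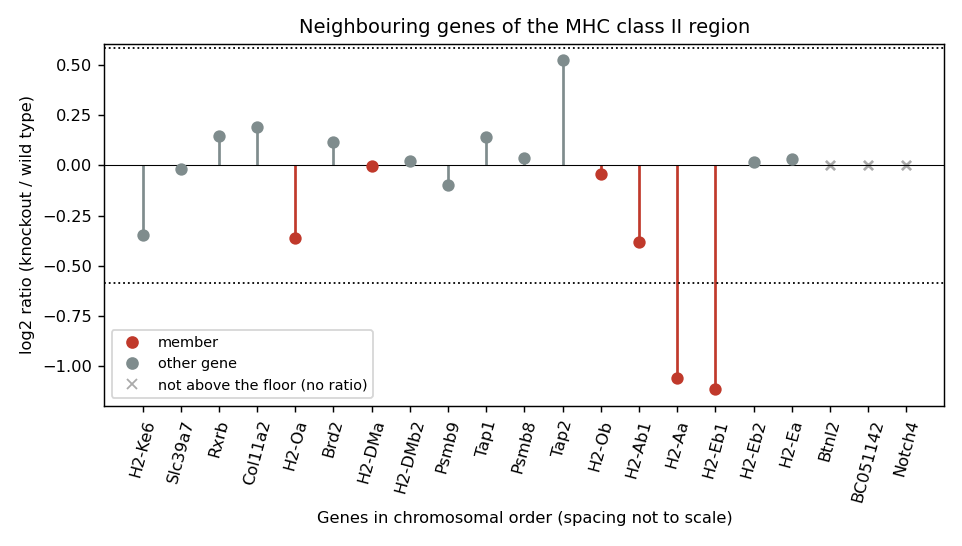
The log2 ratio of knockout over wild type for 21 genes around the class II region in chromosomal order (spacing not to scale); members in red, other genes in grey, crosses for genes not above the floor, dotted lines at 1.5-fold. H2-Aa and H2-Eb1 pass the lower line, and H2-Eb2 and H2-Ea beside them lie at 0.02 and 0.03.

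The ratios of genes that held a pair are listed here beside the letters. The GCAAC pair preceded H2-Aa (log2 -1.06) and H2-Eb1 (-1.12), and also H2-Oa (-0.36), H2-Ob (-0.04) and, outside the members, H2-Eb2 (0.02). The ACNGATG pair preceded H2-Eb1 and also H2-Eb2 (0.02) and H2-DMb2. H2-DMb2 had its own probe sets at 154 against 152 (log2 0.02) and 91.4 against 83.1 (log2 0.14) and another under the floor. The letters of the pair as printed above are present in genes that differed and in genes that did not. H2-Ab1 and Cd74 had no promoter entry, and the part of the X and Y boxes in the differences was not tested.

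Other class II chain genes, promoter factors and processing genes were followed as lists, which were chosen with earlier results of these data known. Beside the counts here and in the lists below, the shares of all measured genes were 2.63% lower and 1.71% higher. With so few genes per list, a count of 0 lies near those shares. The 3 other chain genes (H2-DMb2, H2-Eb2 and H2-Ea) were measured and 0 were 1.5-fold different. Of the 7 genes for RFX, CREB and NF-Y proteins, 7 were measured and 0 were 1.5-fold different, with a median of -0.06. Rfx5, the DNA-binding subunit of RFX, read 557 against 700 (log2 -0.33), and Rfxank read 105 against 132 (log2 -0.33) with another probe set at 0.72. Both were named after their values were seen. Of 14 genes on the path from interferon gamma to Ciita, 10 were measured and 0 were 1.5-fold different, with a median of 0.12. Socs1, Irf4 and Prdm1 were not above the floor.

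Endosomal processing genes were level as a list but held 3 lower members. All 15 listed genes were measured, and 3 passed 1.5-fold downward and 0 upward, with a median of 0.04. Ctsh, the aminopeptidase cathepsin H, read 125 against 269 (log2 -1.10), and -1.05 on its other probe set. Lgmn, the asparagine-specific endopeptidase legumain, read 63.9 against 114 (log2 -0.83), close to the floor on the array labelled knockout. Marchf8, a membrane ubiquitin ligase, read 172 against 275 (log2 -0.68). MHC class I presentation was measured as 17 of 20 listed genes. Of the 17, 0 were at least 1.5-fold different in either direction, near the shares of all measured genes (2.63% lower and 1.71% higher). The class I median was -0.03, with ratios from -0.22 to 0.52. The difference between the class I and class II lists was not tested, since there is 1 array per genotype.

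**Figure D5:**
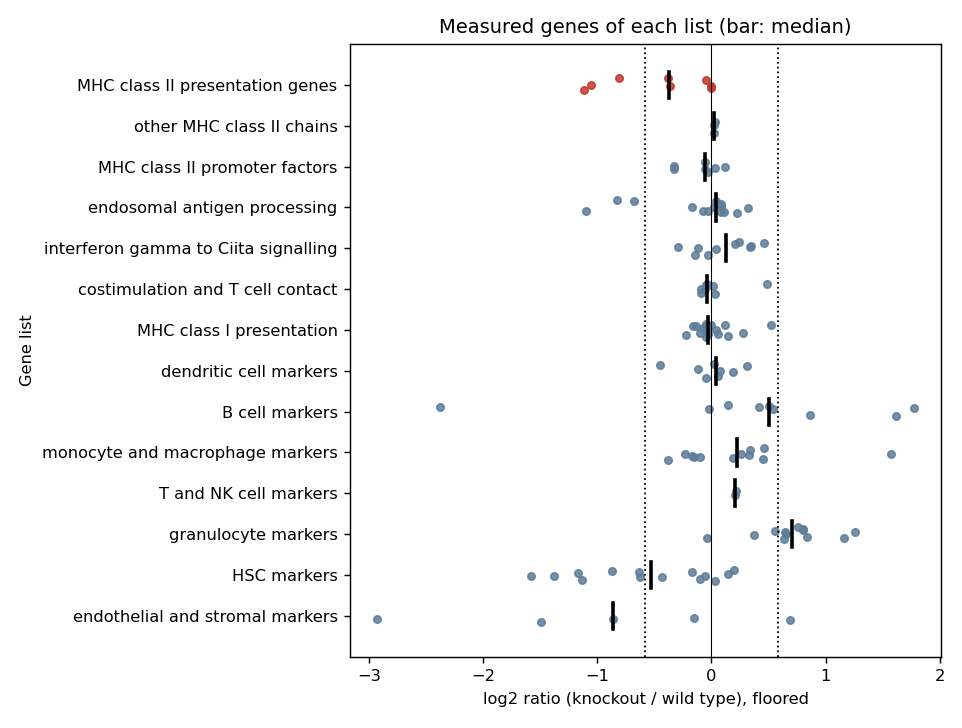
The log2 ratio of knockout over wild type of each measured gene (points) in the class II members (red) and 13 other lists (blue), with the list median as a black bar and dotted lines at 1.5-fold. The members run from -1.12 to near 0 with a median of -0.37, the class I list from -0.22 to 0.52, and the HSC and granulocyte marker medians lie at -0.53 and 0.71.

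Markers of the cells that carry most MHC class II are given beside these values, since fewer cells of a type and less RNA per cell cannot be told apart in bulk RNA. Of 14 dendritic cell markers 8 were measured, 0 were 1.5-fold different, and their summed signal over the 13 with a probe set was 8505 against 8775. Its largest parts were Cd24a (3730 against 4040), Flt3 (1659 against 1452) and Tcf4 (1422 against 1467), named after their values were seen. The sum rests mostly on these genes and does not measure dendritic cell content. Zbtb46, Xcr1, Cd209a, Ccr7 and Siglech were not above the floor on either array. Of 15 B cell markers 9 were measured. Ighm (707 against 3684) was lower on its brightest probe set, while its 8 probe sets above the floor ranged from log2 -2.38 to -0.04, and Vpreb1, Igll1 and Blnk were higher, and the sum was 2370 against 4645, or 1663 against 961 without Ighm. Ms4a1, Ebf1, Blk, Fcer2a and Bank1 were not above the floor. Of 15 monocyte and macrophage markers 12 were measured, 0 were lower and 1 was higher (F13a1, 1273 against 428), and the sum was 3551 against 2395. F13a1 held the largest gap in that sum. Of the 12 log2 ratios 7 were positive and 5 negative, from -0.38 to 1.57 with a median of 0.22. Cd14 and Mertk were not above the floor. The part of these cells in the class II differences was not tested.

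Other markers also differed between the 2 arrays. The HSC label was not checked by the HSC markers, since the floor is only the level of the median probe set. All 14 HSC markers with a probe set had signal above that floor. Of these, 7 were at least 1.5-fold lower, with Ndn (log2 -1.58), Fgd5 (-1.38), Mllt3 (-1.17) and Hlf (-1.13) the lowest, and the sum was 13408 against 15923. Granulocyte markers were higher in 9 of 12 measured genes, with a sum of 37781 against 24277, led by Lcn2 (log2 1.26) and Ms4a3 (1.17). Endothelial and stromal markers had 5 of 11 measured, 3 lower and 1 higher, with a sum of 690 against 1220, or 632 against 759 without Cxcl12. Cxcl12 read 57.4 against 461, the first of these under the floor, and was at least 7.63-fold lower. Cdh5, Lepr, Col1a1, Col3a1, Dcn and Kitl were not above the floor. T and NK cell markers had 2 of 13 measured, 0 of them 1.5-fold different, with a sum of 2429 against 2120, or 335 against 300.5 without Nkg7. Cd3d, Cd3e, Cd3g, Cd4, Cd8b1, Ncr1, Gzma and Il2rb were not above the floor. How far these differences enter those of the class II genes was not tested.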

How the data were processed

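One array per genotype was used, from mouse HSC labelled Sirt6 knockout and wild type. The authors deposited linear signal intensities per probe set, for which the submitters' processing notes name MAS5. No source used here gives the version, scaling target or detection calls. Median signals were 60.7 and 60.8, so values were used as deposited. Of 45037 probe sets, 34945 named 1 gene, 932 several and 9160 none in the platform annotation, and 34741 of the 34945 matched a RefSeq record (GRCm38.p6) by Entrez identifier.

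Each gene took its brightest probe set by mean log2 signal, floored at the median of all probe sets (60.5), and 1.5-fold was the size counted. The text names all members, Sirt6 and, of other lists, up to 4 genes past 1.5-fold. Genes named outside that rule are marked or are markers not above the floor. Members and lists were chosen with earlier results of these data known. Alternatives were other scalings, floors, a pseudocount, probe set choices and 2-fold. The procedure was tested on simulated data. The number of arrays limits the precision. Python 3.11.15, numpy 2.4.6, pandas 2.3.3, statsmodels 0.14.6 and matplotlib 3.10.9 were used.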

Additional observations from a re-analysis of the deposited data

How the results depend on the processing

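The number of members at least 1.5-fold lower was 3, or 2 with the floor at percentile 75, without probe sets ending in _x_at or _s_at, and at 2-fold. The shares of all measured genes beside these counts were 2.63%, 1.29%, 2.55% and 0.572%, in that order. Under the higher floor H2-Eb1 (log2 -0.17) was lost, and without those probe sets H2-Aa had none left. The number higher was 0 under all 11 alternatives, against 0.398% to 5.42% of all measured genes. The median of the measured members ran from -0.42 to -0.17 over 10 alternatives. H2-Aa ran from -1.06 to -0.93 and Cd74 from -0.81 to -0.71. With a pseudocount of 1 floor H2-Eb1 was -0.84, and with the floor at percentile 75 H2-Oa was -0.11. H2-Ob (0.01) and Ctss (0.02) turned positive under quantile normalization, Ctss also under loess, and H2-DMa under median centring and loess. Counting only genes above the floor on both arrays, an alternative chosen after seeing the data, changed none of these counts. No paired analysis was possible because each genotype had 1 array, and for the same reason no array could be left out. Signal over background limits Ciita, which was under the floor on both arrays.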

Other observations

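Genes for costimulation and contact with T cells, which act beside MHC class II on antigen-presenting cells, were followed as a further list. Of 10 listed genes 8 were measured, and 0 were at least 1.5-fold different in either direction. The shares of all measured genes were 2.63% lower and 1.71% higher, so a count of 0 among 8 does not set these genes apart. The median log2 ratio was -0.04. Cd80, a ligand of CD28, was not above the floor on either array. Cd86, the other CD28 ligand, was near the floor (52.3 against 64.2), and Cd40 read 85.8 against 88.1. The highest ratio was that of Cd48, an adhesion ligand of the SLAM family, at 2515 against 1790 (log2 0.49). These 4 genes were named after their values were seen.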
